A study of Mus musculus with 6 samples.

Results

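The stefin A genes are a tandem cluster on mouse chromosome 16, and stefin B is a single gene, Cstb, on chromosome 10. Their transcripts were measured by RNA sequencing of neutrophils sorted from bone marrow. The rule took every row whose symbol begins with Stfa, together with Cstb and the genes BC100530, BC117090 and Gm5483. It found 8 genes among the 47561 rows of each file. Of these, 5 carry the symbols as spelled (Stfa1, Stfa2, Stfa2l1, Stfa3 and Cstb), and 3 are listed under newer symbols at the same position: Cstdc4 for Gm5483, Cstdc5 for BC100530 and Cstdc6 for BC117090. All mice were male and wild type, with no strain or age in the sources used here. The Control group has 3 libraries, and the other 3 come from mice under CUMS (chronic unpredictable mild stress), a schedule of changing mild stressors that ran for 4 weeks and serves as a model of depression. Nothing says that each library came from its own animal, so p-values measure the spread between these samples, which may be technical.

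Stefins are small inhibitors that sit in the cytosol and bind the active site of papain-like cysteine proteases, among them the lysosomal cathepsins B, C, H, L and S. They differ from the other cystatins in having no signal peptide for secretion. In the mouse the stefin A gene has been duplicated many times, and its copies are known for high expression in granulocytes and in stratified epithelia. Stefin B is expressed in most tissues, and loss of its human counterpart causes a progressive myoclonus epilepsy.

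The 7 stefin A members span 298.6 kb of chromosome 16 (GENCODE M21 on GRCm38). Stfa2l1 (chr16:36156811-36161953), Cstdc4 (chr16:36184212-36188111) and Stfa1 (chr16:36276951-36285373) lie on the plus strand. Cstdc6 (chr16:36321665-36334332), Cstdc5 (chr16:36359382-36367748), Stfa2 (chr16:36403992-36408457) and Stfa3 (chr16:36450537-36455392) lie on the minus strand. Cstb occupies chr10:78425669-78427622 on the plus strand. All 8 are protein-coding genes whose main coding transcript has 3 exons. Each value counts a whole gene, and exons or UTRs were not measured separately.

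How far the copies can be told apart by their reads depends on their sequence. Coding sequences were 76.6% to 97.9% identical over the 21 pairs of stefin A members, with a median of 81.1%. The closest pairs were Stfa1 and Cstdc5 (97.9%), Stfa2 and Stfa2l1 (96.4%) and Cstdc5 and Cstdc6 (95.5%). Cstb shared 54.6% to 60.5% with them. The first 90 coding positions at which all 7 copies align without a gap are shown for 6 copies, to let these relations be seen. They start at coding base 22 in Stfa2l1, Stfa2 and Stfa3 and at coding base 4 in Cstdc4, Stfa1 and Cstdc5. Capitals mark bases that differ from Stfa2l1:
Stfa2l1: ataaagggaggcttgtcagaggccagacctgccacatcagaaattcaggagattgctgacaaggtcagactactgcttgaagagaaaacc
Stfa2: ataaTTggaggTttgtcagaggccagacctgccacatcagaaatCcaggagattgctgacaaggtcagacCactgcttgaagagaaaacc
Stfa3: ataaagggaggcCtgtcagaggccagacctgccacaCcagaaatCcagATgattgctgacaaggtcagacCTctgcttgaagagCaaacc
Cstdc4: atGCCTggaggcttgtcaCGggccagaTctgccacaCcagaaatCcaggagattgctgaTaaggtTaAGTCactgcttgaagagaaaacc
Stfa1: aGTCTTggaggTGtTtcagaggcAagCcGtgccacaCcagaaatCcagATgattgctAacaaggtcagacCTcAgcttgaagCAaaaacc
Cstdc5: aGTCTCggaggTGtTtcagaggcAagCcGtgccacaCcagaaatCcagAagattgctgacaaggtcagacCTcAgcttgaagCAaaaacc
Stfa2 differed from Stfa2l1 at 5 of the 90 bases, Stfa3 at 8, Cstdc4 at 15, Cstdc5 at 19 and Stfa1 at 21. No exact stretch of 150 bases, the length of 1 read, was shared between a member's main transcript and a transcript of another gene. Stretches of 75 bases were shared by Stfa2 and Stfa2l1 (23 of the 397 such stretches in Stfa2), by Stfa1 and Cstdc5 (37 of 440 in Stfa1) and by Cstdc4 with Csta2, another gene of the cluster (80 of 340 in Cstdc4). In Cstdc5, 35.8% were shared, with Stfa1, Cstdc6 and the antisense gene Gm15845. Reads that were trimmed, carried errors or came from a strain unlike the reference could therefore still be split among copies, and the value of a single copy is less certain than the sum. Without strand information, reads from the stretch where Cstdc5 and Gm15845 overlap cannot be told apart.

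The copies shared more than coding sequence. RefSeq promoter windows on GRCm38.p6, which hold 250 bases before and 50 after a gene's start, matched 6 of the 8 members (not Cstdc6 or Cstb). The 70 bases before the start are shown for the 5 copies in which they hold the whole shared block, because these copies differ widely in level. They are Stfa2l1 (chr16:36156741-36156810, plus strand), Cstdc4 (chr16:36184142-36184211, plus), Stfa3 (chr16:36455393-36455462, minus), Stfa1 (chr16:36277078-36277147, plus) and Stfa2 (chr16:36408364-36408433, minus). The start here is that of RefSeq. For Stfa1 and Stfa2 it lies inside the GENCODE gene given above, so the bases shown fall within that gene. Capitals mark AGAGGAGGAG and ACCTTTAAAACCC, which belong to the exact runs of 10 or more bases found in the windows of all 6 matched members:
Stfa2l1: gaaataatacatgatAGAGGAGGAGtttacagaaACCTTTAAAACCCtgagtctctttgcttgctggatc
Cstdc4: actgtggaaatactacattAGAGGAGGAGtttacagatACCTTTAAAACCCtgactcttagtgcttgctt
Stfa3: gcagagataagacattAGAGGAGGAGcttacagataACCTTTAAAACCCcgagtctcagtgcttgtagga
Stfa1: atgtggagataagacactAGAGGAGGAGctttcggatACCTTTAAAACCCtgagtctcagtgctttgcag
Stfa2: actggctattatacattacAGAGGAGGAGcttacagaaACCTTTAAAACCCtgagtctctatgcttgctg
The run ACCTTTAAAACCC began 32 to 36 bases before the start in these 5, and AGAGGAGGAG 51 to 55 bases before it. The other shared runs were CACACTCATT, further upstream, and GATCATTTCTTCT, which in these 5 lies at or next to the start. The 4 runs do not overlap each other. Searched on both strands in all 32851 promoter windows, ACCTTTAAAACCC occurred in 9 (0.0274%), GATCATTTCTTCT in 10 (0.0304%), CACACTCATT in 37 (0.113%) and AGAGGAGGAG in 337 (1.03%). All 4 runs together occurred in 6 windows (0.0183%), those of the matched members. That these 6 hold them follows from how the runs were chosen. A match is a description of letters, not of a bound site.

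Library totals ran from 78845457 to 109757558 estimated counts, where 4 estimated counts were taken as about 1 read pair, an assumption. Values are given as CPM, the count scaled to the size of its library after TMM adjustment for library composition. The label neutrophil matched the data: Ly6g, a neutrophil surface marker, had a mean of 454 CPM in the Control libraries and 434 CPM in the CUMS libraries, and S100a9, an alarmin gene, one of 38938 and 32898 CPM. Of 9 keratinocyte markers, the epithelial type that also makes stefin A, 7 were listed at 0 in all libraries (Krt5 and Krt14 among them), and their sum reached at most 0.268 CPM. CUMS replicate 1 stood apart from the other CUMS libraries. The sum of 9 neutrophil markers was 91889 CPM in it, 71309 and 74911 CPM in CUMS replicates 2 and 3, and 83034 to 93343 CPM in Control. Within that list, S100a8 (19775, 11997 and 13583 CPM in CUMS replicates 1 to 3) and S100a9 (39454, 29065 and 30175 CPM) carried most of the gap. Ly6g, Cxcr2, Mmp8 and Retnlg were also highest of the CUMS libraries in replicate 1. Itgam, Csf3r and Mmp9 were instead lowest there, Mmp9 narrowly (9267, 9283 and 9367 CPM in CUMS replicates 1 to 3). The fold change of each stefin gene is therefore given with and without that library.

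Stefin A transcript was carried mainly by a pair of genes. Stfa2l1 and Cstdc4 together made up 84.0% ± 0.418 (SD, n = 3) of the stefin A sum in Control and 85.6% ± 0.899 (SD, n = 3) under CUMS. Per kb of transcript, the Control order was Stfa2l1 (286 ± 15.5 CPM per kb), Cstdc4 (223 ± 1.19), Cstb (36.1 ± 3.53), Stfa3 (31.0 ± 2.54), Stfa1 (21.2 ± 1.06), Stfa2 (15.7 ± 1.56), Cstdc5 (14.5 ± 0.618) and Cstdc6 (1.23 ± 0.43). Neighbours whose Control libraries overlapped were Cstb with Stfa3 and Stfa2 with Cstdc5. The CUMS order of means was the same, and there the overlapping neighbours were Stfa2l1 with Cstdc4, Stfa3 with Stfa1 and Stfa2 with Cstdc5. The order rests on the transcript length used. All annotated exons together span more in Cstdc4 (1862 against 414 bases), Stfa1 (710 against 514) and Cstdc5 (790 against 619). By that length their per-kb levels would be lower. In Control the mean of Stfa1 would then fall just below that of Stfa2, and Cstdc4 would stay second but much nearer to Cstb. Stfa2l1 ranked 1647 and Cstdc6 ranked 12804 by mean CPM among the 15778 genes tested.

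**Figure D1:**
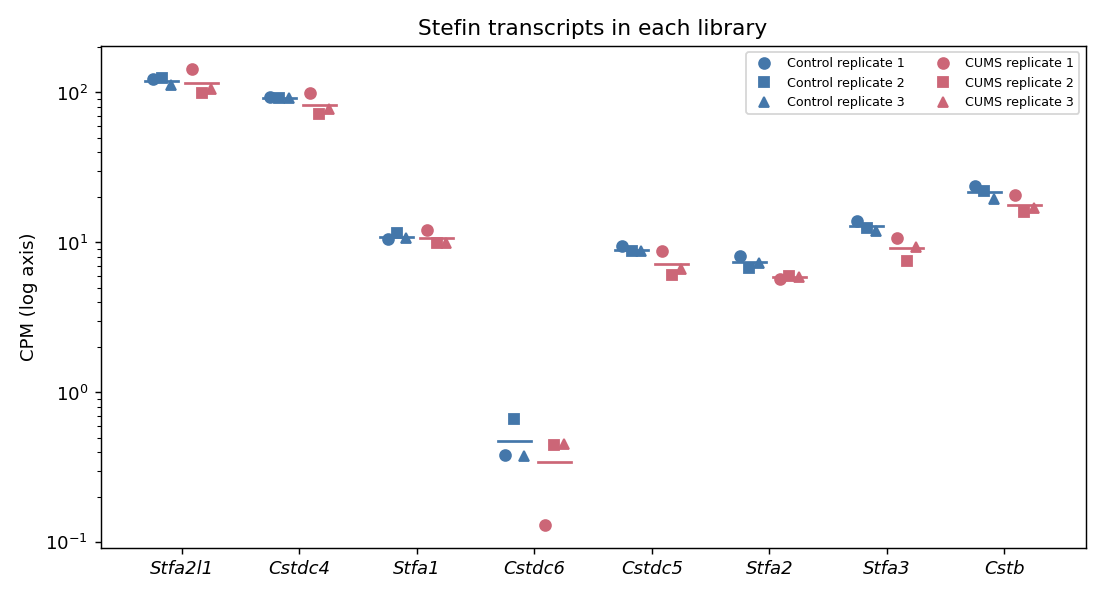
CPM of each stefin gene (log axis) in each of the 6 libraries, with a line at the group mean. Stfa2l1 and Cstdc4 lie near 100 CPM, Cstdc6 lies below 1 CPM, and the groups are apart for Stfa2 and Stfa3.

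No member passed the test between CUMS and Control, although all 8 had lower fitted levels in CUMS. In the edgeR fit over all genes, 0 of 8 were called at an adjusted p under 0.05, where 4.5% of all 15778 genes were called (2.14% lower and 2.36% higher in CUMS). An unadjusted p under 0.05 was found for 4 members (Stfa3, Cstb, Stfa2 and Cstdc5), all lower, against 8.46% of all genes. DESeq2 and limma voom with quality weights each called 1 member, Stfa3, where they called 4.73% and 3.03% of their genes lower. Log2 fold changes ran from -0.48 to -0.04 with a median of -0.31, against a median of -0.0073 over all genes tested, of which 51.6% were below 0. The groups did not overlap, with CUMS lower, for 2 members against 11.5% of all genes (22.9% in either direction). The members share libraries and sequence and are not independent of each other. In bulk samples, fewer cells of a type and less RNA per cell cannot be told apart.

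Stfa2l1, the most abundant stefin A copy, measured 123, 124 and 112 CPM in Control replicates 1 to 3 and 144, 99.5 and 106 CPM in CUMS replicates 1 to 3. CUMS replicate 1 was the highest library of all and the other CUMS libraries were the lowest, so the groups overlapped. The log2 fold change was -0.04 ± 0.111 (SE, edgeR adjusted p = 0.909). Without CUMS replicate 1 it was -0.22 (adjusted p = 0.0607), and without CUMS replicate 2 or 3 it was positive, at 0.06 and 0.02. Without Control replicates 1 to 3 it was -0.02, -0.01 and -0.09.

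Cstdc4, a neighbour of Stfa2l1 in the cluster, stood at 92.8, 92.3 and 91.8 CPM in Control and at 99.0, 72.0 and 77.8 CPM in CUMS. Control libraries lay within 1 CPM of one another, while CUMS spread on both sides of them. The log2 fold change was -0.16 ± 0.0934 (edgeR adjusted p = 0.453). Without CUMS replicate 1, edgeR called Cstdc4 lower, with a log2 fold change of -0.30 and an adjusted p of 0.0138, where 2.07% of genes were called lower. Without CUMS replicate 2 or 3 the log2 fold change was instead -0.06 (adjusted p = 0.857) and -0.11 (0.77). The same library was thus the highest of the 6 for both major copies, and the highest CUMS library for 6 of the 8 members, while CUMS replicate 2 was the lowest of all 6 libraries for 6 members. In CUMS replicate 1 the neutrophil marker sum, led by S100a8 and S100a9, was also the highest of its group. Ly6g, Cxcr2, Mmp8 and Retnlg of that list were highest there too, while Itgam, Csf3r and Mmp9 were lowest. The part of that difference in the stefin values was not tested.

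Stfa3, the copy at the end of the cluster opposite Stfa2l1, had the most negative fitted difference. It measured 14.0, 12.4 and 12 CPM in Control and 10.7, 7.48 and 9.39 CPM in CUMS, or 254.8 to 319.8 and 208.0 to 253.8 read pairs. Every CUMS library lay below every Control library. The log2 fold change was -0.48 ± 0.136 with an edgeR adjusted p of 0.0783, just outside the threshold of 0.05. It passed with DESeq2 (adjusted p = 0.0176), with voom (0.0289) and without CUMS replicate 1 (-0.60, 0.0389). It did not pass without CUMS replicate 2 (-0.34, 0.246) or 3 (-0.49, 0.206). Nor did it pass without Control replicates 1 to 3 (edgeR adjusted p 0.222, 0.167 and 0.14). Over the 13 alternatives its adjusted p ran from 0.0176 to 0.246, with 5 below the threshold. Stfa3 also passed with a filter of 1 CPM in 3 libraries (0.0413) and with the replicate number as a block (0.0331). The share of all genes called lower was 3.9% and 2.73% there. Stfa3 did not pass with RLE scaling or with no filter, where that share was 2.07% and 0.901%. The share was 1.37%, 1.03% and 1.03% without Control replicates 1 to 3, and 1.15% and 0.991% without CUMS replicates 2 and 3.

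Stfa2, the copy closest in sequence to Stfa2l1, measured 8.18, 6.72 and 7.28 CPM in Control and 5.70, 5.99 and 5.88 CPM in CUMS. The groups did not overlap, and here CUMS replicate 1 was the lowest library, the reverse of its place for Stfa2l1. The log2 fold change was -0.34 ± 0.127 (edgeR adjusted p = 0.191), and -0.32 without CUMS replicate 1. The ratio of Stfa2l1 to Stfa2 was 15, 18.5 and 15.4 in Control and 25.3, 16.6 and 17.9 in CUMS. Summed over this pair, the CUMS libraries held 150, 106 and 111 CPM and the Control libraries 131, 131 and 120 CPM, a log2 ratio of means of -0.06.

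Stfa1 and Cstdc5 form the other close pair. Stfa1 stood at 10.5, 11.5 and 10.7 CPM in Control and at 12.1, 9.92 and 9.95 CPM in CUMS, with overlapping groups and a log2 fold change of -0.04 ± 0.113 (edgeR adjusted p = 0.933). Without CUMS replicate 1 the value was -0.14 (adjusted p = 0.621). Its sign turned positive, at 0.01, without Control replicate 2, and at 0.02 when either of CUMS replicates 2 and 3 was left out. Cstdc5 measured 9.41, 8.75 and 8.74 CPM in Control and 8.79, 6.04 and 6.61 CPM in CUMS. Its groups overlapped through CUMS replicate 1 alone, and its log2 fold change was -0.33 ± 0.147 (edgeR adjusted p = 0.283), or -0.50 without that library (0.0593) and -0.22 without CUMS replicate 2 (0.617). The ratio of Stfa1 to Cstdc5 was 1.12, 1.32 and 1.22 in Control and 1.38, 1.64 and 1.5 in CUMS, higher in every CUMS library. With Cstdc6 added, the 3 copies summed to 20.3, 20.9 and 19.8 CPM in Control and 21.0, 16.4 and 17.0 CPM in CUMS.

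Cstdc6 was close to the limit of detection. The Control libraries held 30, 69 and 32 estimated counts and the CUMS libraries 11, 50 and 49, taken as 2.8 to 17.2 read pairs. The CUMS replicate 1 value lies under the floor of 12 estimated counts (3 read pairs). The log2 fold change of -0.46 ± 0.585 (edgeR adjusted p = 0.778) has an SE larger than itself, so a difference was not detectable at this depth. Single libraries moved the value widely, to -0.08 without CUMS replicate 1 and -0.13 without Control replicate 2, and to -0.69 and -0.70 without CUMS replicates 2 and 3.

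Cstb, the stefin B gene, measured 23.8, 22.0 and 19.5 CPM in Control and 20.6, 15.9 and 17.0 CPM in CUMS. The groups overlapped, since CUMS replicate 1 lay above Control replicate 3. The log2 fold change was -0.29 ± 0.109 (edgeR adjusted p = 0.188), and without CUMS replicate 1 it was -0.40 (0.054). Without CUMS replicate 2 or 3 it was instead -0.21 (0.48) and -0.26 (0.446). Without Control replicates 1 to 3 it was -0.22 (0.441), -0.28 (0.36) and -0.36 (0.171). The ratio of Stfa2l1 to Cstb was 5.17, 5.64 and 5.75 in Control and 7.01, 6.26 and 6.19 in CUMS, higher in every CUMS library.

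**Figure D2:**
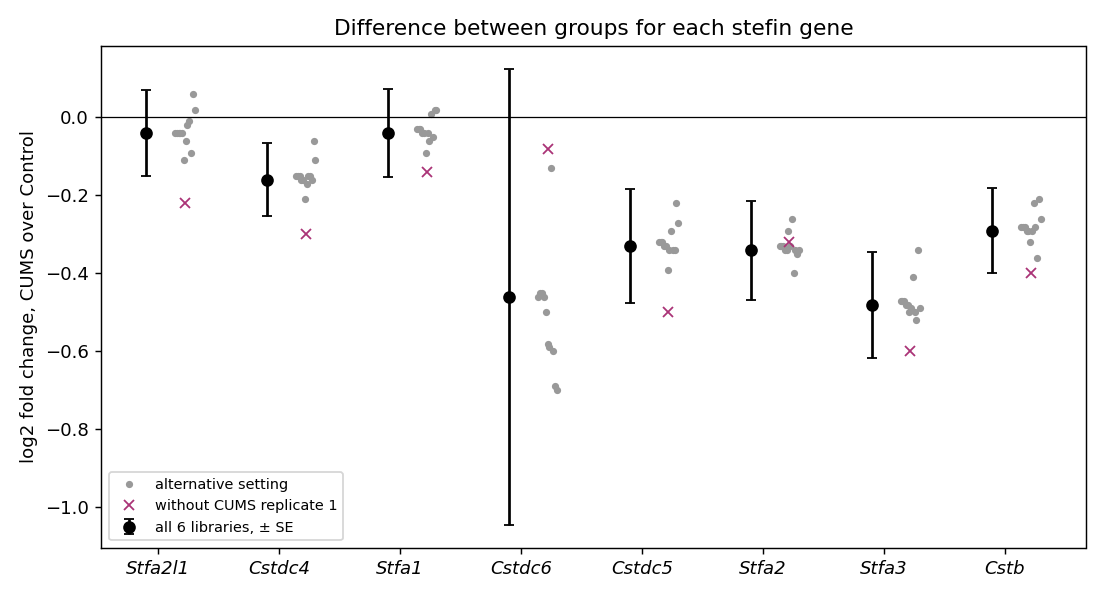
Log2 fold change of CUMS over Control for each stefin gene, ordered along chromosome 16 with Cstb last. Black points with bars are the edgeR fit on 6 libraries ± SE, grey points are the alternative settings, and crosses leave out CUMS replicate 1. Crosses lie below the black points except for Cstdc6 and Stfa2.

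Because copies can exchange reads, the stefin A counts were also summed. The 7 members together gave 258, 257 and 243 CPM in Control and 281, 201 and 216 CPM in CUMS. Means were 253 ± 8.21 and 233 ± 42.2 CPM (SD, n = 3 each), a log2 ratio of -0.12. The CUMS libraries lay on both sides of the Control libraries, and the difference of the means was smaller than the CUMS spread. Without CUMS replicate 1 the log2 ratio was -0.28, and without CUMS replicate 2 it was -0.02. The 4 Stfa rows alone had a log2 ratio of -0.09, the 3 Cstdc members -0.17, and the 6 copies other than Stfa2l1 -0.19, from 133 ± 2.21 to 116 ± 18.1 CPM.

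Within the sum, the shares of Stfa2l1, Stfa3 and Cstdc5 did not overlap between the groups. By CPM, 22.9% of all genes tested did not overlap in either direction. Stfa2l1 took 47.6%, 48.4% and 46.2% of the sum in Control and 51.4%, 49.4% and 48.9% in CUMS, higher in every CUMS library. Stfa3 took 5.41%, 4.82% and 4.93% in Control and 3.82%, 3.71% and 4.35% in CUMS, lower in every CUMS library. Cstdc5 was likewise lower in every CUMS library, at 3.55% ± 0.123 in Control against 3.07% ± 0.0667 (SD, n = 3 each). The groups overlapped for Cstdc4, Stfa1, Stfa2 and Cstdc6. Shares are tied to each other, since a rise of one lowers the rest, and no test was made on them.

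**Figure D3:**
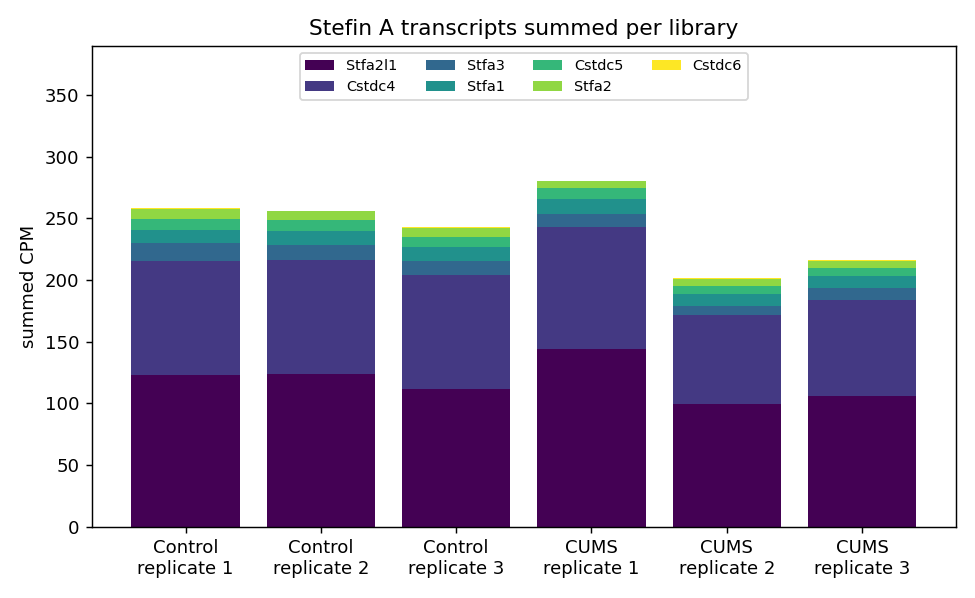
Summed CPM of the 7 stefin A members in each library, stacked by gene from the most abundant at the bottom. CUMS replicate 1 reaches 281 CPM and CUMS replicate 2 only 201 CPM, on either side of the Control libraries at 243 to 258 CPM.

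Other genes of the cluster were scarce. Csta3 averaged 1.04 ± 0.243 CPM over Control and 1.27 ± 0.325 CPM over CUMS libraries (SD, n = 3 each), and Csta2 0.646 ± 0.0992 and 0.530 ± 0.164 CPM. Neither passed the test (edgeR adjusted p = 0.744 and 0.81). Csta1 held 9 estimated counts in Control replicate 3, under the floor, and none elsewhere, and Cstdc3 was listed at 0 throughout. Adding them to the 7 members left the log2 ratio of the sum at -0.12.

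The cluster lies between genes that differed strongly between the groups. Sema5b, a semaphorin gene that ends 492.1 kb before Stfa2l1, measured 3.70 ± 0.341 CPM in Control (SD, n = 3) and was listed at 0 in every CUMS library. Taking 12 estimated counts (3 read pairs) in each library as the floor, it was at least 30.7-fold lower. Slc15a2, a peptide transporter gene that starts 294.8 kb beyond Stfa3, fell by 3.25 on the log2 scale from 11.1 ± 1.59 CPM. From Sema5b to Slc15a2, 22 annotated genes were tested, 7 of them stefin A members. The interval was drawn to end at Sema5b and Slc15a2, so the fall of these 2 is not a finding about the interval. Of the other 15, these 2 fell and 3 rose, where 2.14% of all genes tested were called lower and 2.36% higher. Those that rose were Parp14, Dtx3l and Parp9, genes of ADP-ribosylation and ubiquitin transfer known for induction by interferon. They rose by 0.25 ± 0.061, 0.35 ± 0.046 and 0.27 ± 0.0602 on the log2 scale (SE). The Parp9 call was lost whichever library was left out, and the Parp14 call in all such fits but that without Control replicate 2 (edgeR adjusted p 0.0571 to 0.151). Cd86, a costimulatory receptor gene and the tested gene next to Stfa3, had a log2 fold change of -0.27 ± 0.108 (adjusted p = 0.216).

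**Figure D4:**
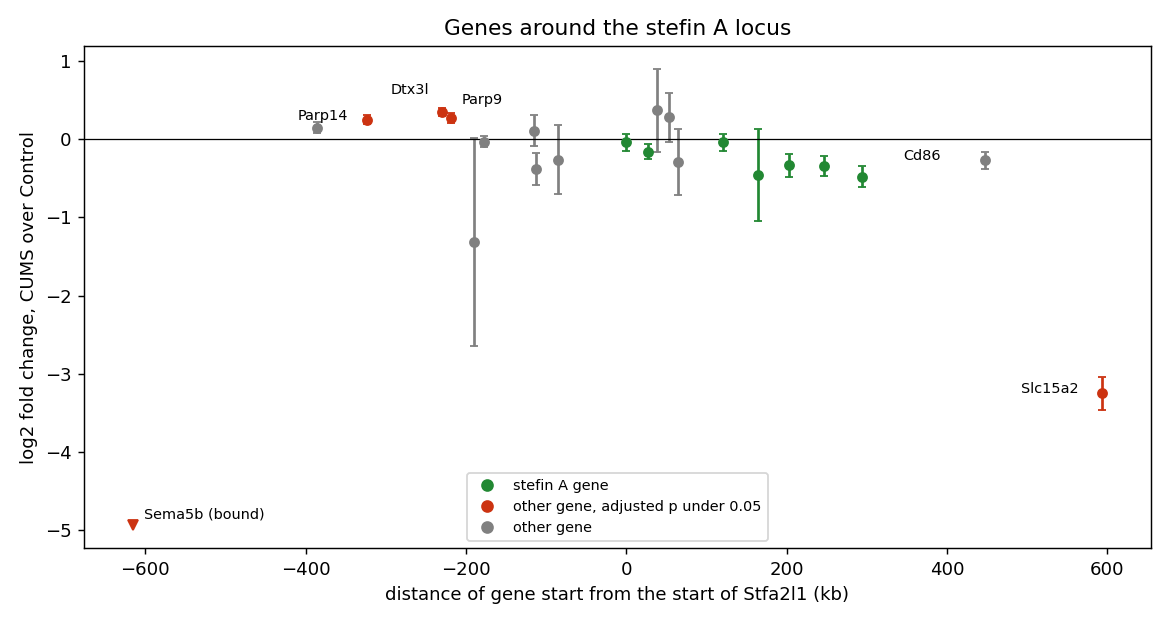
Log2 fold change of CUMS over Control (± SE) of the 22 tested genes from Sema5b to Slc15a2, by distance of the gene start from that of Stfa2l1 in kb. Sema5b is drawn at its lower bound, since it is listed at 0 in CUMS. The 7 stefin A genes lie between -0.48 and -0.04, far above Sema5b and Slc15a2.

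The proteases that stefins inhibit were measured in the same libraries. Of 10 papain-family cathepsin genes, 9 were tested, 2 fell and 0 rose, with a median log2 fold change of -0.11 beside -0.0073 for all genes. Ctsc encodes cathepsin C, the activator of neutrophil serine proteases, and averaged 13.1 ± 0.641 CPM in Control against 6.59 ± 0.524 in CUMS (SD, n = 3 each). It fell by 0.99 on the log2 scale (edgeR adjusted p = 4.59e-04). Ctsb, a lysosomal endopeptidase gene, fell from 181 ± 2.66 to 160 ± 6.23 CPM (-0.18, adjusted p = 0.0409), but this call was lost with no filter (0.0824) and when any library except CUMS replicate 1 was left out (0.0952 to 0.182). Ctsh, Ctsl and Ctss had log2 fold changes of -0.11, 0.11 and 0.11, none past the threshold. Summed over the 10 genes, cathepsin CPM was 432 to 447 in Control and 386 to 410 in CUMS, without overlap.

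Among 15 other cystatin genes, Cst3, the secreted cystatin C gene, was the one at an appreciable level. It averaged 144 ± 5.66 CPM over the Control and 144 ± 16.7 CPM over the CUMS libraries (SD, n = 3 each; edgeR adjusted p = 0.996), again with its highest value in CUMS replicate 1 (163 CPM). Cst7, the cystatin F gene, stayed below 0.5 CPM in every library. Of the rest, 11 were listed at 0 throughout.

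Other marker lists were set beside the stefins. Of 16 secondary granule genes, expressed in maturing neutrophils before the mature stage, 5 fell (Olfm4, Fcnb, Chil3, Camp and Ltf) and 0 rose, with a median log2 fold change of -0.10. The calls of Camp and Ltf were lost when any library except CUMS replicate 1 was left out (edgeR adjusted p 0.0586 to 0.256), with RLE scaling (0.0503 and 0.0595) and with no filter (0.127 and 0.14), and that of Camp with DESeq2 (0.0789). Without CUMS replicate 1, 9 genes of the list fell. The summed level of that list was 82792 to 86747 CPM in Control and 83492, 73970 and 76215 CPM in CUMS replicates 1 to 3, so it too was highest of its group in CUMS replicate 1. Of 20 mature neutrophil genes, 2 rose and 7 fell, with a median of -0.03, and of the 9 neutrophil markers 1 rose (Mmp9, a gelatinase gene). These lists overlap: Mmp9, Cxcr2, Csf3r and Retnlg are on both, and Mmp9 is 1 of the 2 mature neutrophil genes that rose. Mmp8 is on the neutrophil marker and secondary granule lists. The Mmp9 call was lost with no filter (0.062), without Control replicate 2 or 3 (0.184 and 0.13) and without CUMS replicate 2 or 3 (edgeR adjusted p 0.0996 and 0.18). Of these 9 markers, 2 rose and 2 fell without CUMS replicate 1. With voom 2 rose and 1 fell, with the replicate block 1 rose and 2 fell, and with DESeq2 2 rose and 0 fell. Without Control replicate 2 or 3, 0 mature neutrophil genes rose and 5 fell. Of 16 erythroid markers, 9 rose (7 or 8 with any library left out), and their sum went from 1308 to 1877 CPM in Control to 2527 to 3014 CPM in CUMS. Of 11 B cell markers, 1 rose (Ighm), and the sum was 166 to 171 CPM in Control and 206 to 213 CPM in CUMS. Of 9 eosinophil markers, 2 rose: Prg2, a granule protein gene, from 0.885 to 4.82 CPM, and Epx, the eosinophil peroxidase gene, from 0.119 to 1.49 CPM. Their list had a median log2 fold change of 1.44 and sums of 44.9 to 51.9 and 51.6 to 60.3 CPM. The Epx call was lost without Control replicate 3 (0.0627) and without CUMS replicate 2 or 3 (edgeR adjusted p 0.0711 and 0.0714). DESeq2 gave Epx no adjusted p. Epx was near or under the floor in Control, at 0.217, 0 and 0.141 CPM in replicates 1 to 3. Of 10 monocyte markers, 2 rose (F13a1 and Csf1r, the latter lost without any library except CUMS replicate 1), with sums of 1531 to 1591 and 1553 to 1676 CPM. Of 8 basophil or mast cell markers, 6 were tested and none passed, while all 6 had log2 fold changes below 0 and the sums were apart, at 8.54 to 10.2 CPM in Control and 5.28 to 6.49 CPM in CUMS. With voom, with the replicate block and without CUMS replicate 2, 1 gene of that list was called lower. The same count was found with a filter of 1 CPM in 3 libraries, where 3 were tested. Plasma cell sums were 9.88 to 11.6 and 11.6 to 14.0 CPM, and T or NK cell sums 3.93 to 6.04 and 4.12 to 5.69 CPM, with no gene passing in either list. The part of these cells in the stefin values was not tested.

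By likeness of pattern, Ostf1, Lgals9 and Ankrd22 followed the stefin A sum most closely, with Pearson r of 0.995, 0.994 and 0.992 between log2 CPM values over the 6 libraries, among 6440 genes of at least 10 CPM. Rps12-ps3 and Stub1 came next, both at 0.982. For Cstb the closest were Eif4a1 (0.995), Usp16 and Ndufb8 (0.99 each) and Atp5h and Atp5j (0.988 each). None of these 10 genes passed the test between the groups (edgeR adjusted p 0.127 to 0.81). The 6 points share libraries and scaling, and the genes were picked for their r, so the values are a description only.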

How the data were processed

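RNA from sorted bone marrow neutrophils was sequenced in 3 Control and 3 CUMS libraries with pairs of 150-base reads. Per the submitters' processing notes, HISAT2 2.1, featureCounts 1.6.4, cutadapt 1.16.5 and build mm10 were used. No source used here gives the annotation or strand setting. The authors deposited estimated counts, 1 whole number per gene and library, made from these alignments. They were taken as estimates because the values 4, 8, 12 and 16 occurred 1.38 to 1.89 times as often as their neighbours. Values midway between them were not compared, so 4 estimated counts per read pair is an assumption. The values entered edgeR 4.0.16 (R 4.3.3) unchanged: filterByExpr, TMM scaling, the quasi-likelihood test with 1 term for group, Benjamini-Hochberg adjustment over all 15778 genes kept, threshold 0.05. All 8 members passed the filter. SEs derive from the F statistic. DESeq2 1.42.0 and limma 3.58.1 (voom) were alternatives. The fit was tested on simulated data. Floors (3 read pairs per library) cover counting error only. Gene models came from GENCODE M21, matched by symbol or position. Per-kb levels used the transcript with the longest coding sequence. Coding sequences were aligned with MAFFT. Genes named were all members, the called genes of most fixed lists (at most 6 per list), genes from Sema5b to Slc15a2, and the 5 most similar patterns. Called genes of the erythroid list, and of the mature neutrophil list apart from Mmp9, were counted but not named. Cd86, Cst3, Ly6g, S100a8, S100a9, Itgam, Csf3r, Cxcr2, Mmp8, Retnlg and the cathepsins that did not pass were named after their values were seen. The members and lists were chosen with earlier results of these data known.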

Additional observations from a re-analysis of the deposited data

How the results depend on the processing

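The count of stefin genes called was 0 with edgeR on all 6 libraries, also with RLE scaling, with no filter on low counts and with members left out of the library totals. It was 1 (Stfa3) with DESeq2, with voom and with a filter of 1 CPM in 3 libraries. Leaving out 1 library at a time gave 0 to 2, the 2 (Stfa3 and Cstdc4) without CUMS replicate 1. Over all genes the 710 calls became 1158 with DESeq2, 462 with no filter and 305 to 697 with 1 library left out. The log2 ratio of the stefin A sum ran from -0.28 to -0.02 with 1 library left out and from -0.19 to -0.09 over the choices of members summed, of which the 4 Stfa rows and the whole locus were added after seeing the data. Replicate numbers are shared between the groups. Over all genes, same-numbered libraries did not deviate together (correlations of 0.008, 0.003 and -0.026). A pairing that acts on few genes could be missed, so it stays unknown whether the numbers pair the samples. With the replicate block, edgeR called 931 genes and 1 member, Stfa3 (log2 fold change -0.49, adjusted p = 0.0331). The cause of these differences was not tested. Depth limits Cstdc6, at 2.8 to 17.2 read pairs a library.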
